A study of Mus musculus with 6 samples.

Results

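This account concerns 7 long noncoding RNA genes, *Gas5*, *Snhg1*, *Snhg5*, *Snhg8*, *Snhg12*, *Neat1* and *Malat1*, out of 24016 genes measured by RNA-seq in mouse osteoblasts. They were chosen by symbol, through the Ensembl identifier of each gene, and all 7 had values in every library. The cells were MC3T3-E1 subclone 4, a clonal preosteoblast line derived from mouse calvaria, which the labels give as wild type. They had been differentiated for 6 days in β-glycerophosphate (10 mM) and ascorbic acid (50 µg/ml). The 3 vehicle cultures were compared with 3 cultures that had received 100 nM corticosterone, the main glucocorticoid of rodents, for 24 h, and calcitriol at 10 nM was present in both groups. The design text calls the cultures biological replicates, all came from the same clonal line, and the passage range is given differently in different places of the labels. The comparison asks which of these RNAs differ in level after glucocorticoid exposure.

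*Gas5*, named for its rise in growth-arrested cells, and the *Snhg* genes are host genes: their introns carry small nucleolar RNAs (snoRNAs), which are cut out of the spliced-out intron and guide chemical modification of ribosomal RNA. Their spliced RNAs encode no long protein, often start with a run of pyrimidines as ribosomal protein mRNAs do, and can be degraded by nonsense-mediated decay when translated. *Gas5* RNA is also known to bind the DNA-binding domain of the glucocorticoid receptor through a stem that resembles its DNA element. *Neat1* is the scaffold of paraspeckles, nuclear bodies that hold proteins and RNAs, and *Malat1* is found in nuclear speckles, where splicing factors gather.

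The start of each host gene is shown first, because the pyrimidine run lies there. The sequences run from 30 bases before to 50 bases after the annotated start (RefSeq, GRCm38.p6). Capitals mark the longest run that opens with C, goes on with C or T for at least 5 bases in all, and begins within 20 bases of the start. *Gas5* has an upstream and a downstream RefSeq start, and the downstream one is shown.
Gas5, chr1:161035136-161035215, plus strand: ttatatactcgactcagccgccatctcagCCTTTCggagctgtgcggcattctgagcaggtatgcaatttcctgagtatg
Snhg1, chr19:8723457-8723536, plus strand: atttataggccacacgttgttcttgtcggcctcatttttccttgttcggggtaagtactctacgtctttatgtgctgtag
Snhg5, chr9:88522848-88522927, minus strand: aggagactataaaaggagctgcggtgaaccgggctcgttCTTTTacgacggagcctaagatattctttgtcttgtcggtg
Snhg8, chr3:123508287-123508366, minus strand: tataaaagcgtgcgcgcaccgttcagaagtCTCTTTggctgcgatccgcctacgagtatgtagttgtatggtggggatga
Snhg12, chr4:132308648-132308727, plus strand: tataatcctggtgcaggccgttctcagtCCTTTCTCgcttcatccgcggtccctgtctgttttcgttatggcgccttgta

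The run was 6 bases long in *Gas5* (CCTTTC), 5 in *Snhg5*, 6 in *Snhg8* (CTCTTT) and 8 in *Snhg12* (CCTTTCTC), and such a run was not found in the window of *Snhg1* or of the upstream *Gas5* start (chr1:161034571-161034650). Such a run was present in 47.5% of 32851 promoters of the same 300 bases (250 before the start and 50 after it), so the match describes these starts and does not set them apart. The *Snhg1* start does hold a pyrimidine stretch, TTTTTCCTT, which opens with T and so does not meet the rule. The glucocorticoid receptor element, searched on both strands as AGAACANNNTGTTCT, was in none of the promoters of the 6 genes with an entry (*Neat1* had none), and in 0.00913% of all promoters. One arm of it, AGAACA or TGTTCT, was in the *Snhg1* promoter and in 19% of all promoters. A missing match says only that these letters are not in this window.

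The snoRNAs carried by the host genes come in 2 classes, and an example of each is shown from the GENCODE transcripts of GRCm38. In box C/D snoRNAs the capitals mark the C box (TGATGA) and the D box (CTGA), which bind the core proteins, and in the box H/ACA snoRNA they mark the ACA near the end.
Gm22357, in Gas5, chr1:161036057-161036139, plus strand: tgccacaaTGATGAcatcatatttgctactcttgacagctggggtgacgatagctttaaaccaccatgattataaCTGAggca
Snord47, in Gas5, chr1:161038082-161038158, plus strand: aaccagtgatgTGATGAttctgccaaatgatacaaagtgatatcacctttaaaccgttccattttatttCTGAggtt
Gm25855, in Snhg1, chr19:8723993-8724064, plus strand: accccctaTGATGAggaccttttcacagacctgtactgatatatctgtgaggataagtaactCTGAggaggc
Snord50a, in Snhg5, chr9:88521529-88521600, minus strand: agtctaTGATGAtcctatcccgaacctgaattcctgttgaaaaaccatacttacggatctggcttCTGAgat
Snora24, in Snhg8, chr3:123507937-123508066, minus strand: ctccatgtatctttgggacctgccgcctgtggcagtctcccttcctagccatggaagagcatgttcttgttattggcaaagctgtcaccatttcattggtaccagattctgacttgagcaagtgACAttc

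The annotation places 10 snoRNA genes inside *Gas5*, 8 inside *Snhg1*, 2 inside *Snhg5*, 1 inside *Snhg8* and 5 inside *Snhg12*, and none inside *Neat1* or *Malat1*. With the boxes required letter by letter, 7 of the *Gas5* entries, 5 of the *Snhg1* entries and both *Snhg5* entries were box C/D, whereas the *Snhg8* entry and 3 of the *Snhg12* entries were box H/ACA. A pair of the *Gas5* entries (*Snord80*) and a pair of the *Snhg12* entries (*Snora16a*) lie on the same bases. The snoRNAs themselves were not analysed here. Because annotated transcripts that retain introns place every snoRNA within the exons of its host, reads from a snoRNA precursor and from the spliced host cannot be told apart in the host's value.

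*Neat1* and *Malat1* share an unusual 3′ end, in which a U-rich stretch and an A-rich stretch fold into a stable structure in place of a poly(A) tail. The last 90 bases of the long *Neat1* transcript (20771 bases), the 90 bases of the longest *Malat1* transcript that end at its last GCAAAA, and the last 90 bases of the short *Neat1* transcript (3004 bases) are shown, with the stretches TTTTGCTTTT and AAAAAGCAAAA or the poly(A) signal AATAAA in capitals.
Neat1 long, chr19:5824708-5824797, minus strand: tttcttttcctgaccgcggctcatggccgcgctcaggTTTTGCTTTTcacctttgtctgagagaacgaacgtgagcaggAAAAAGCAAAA
Malat1, chr19:5795982-5796071, minus strand: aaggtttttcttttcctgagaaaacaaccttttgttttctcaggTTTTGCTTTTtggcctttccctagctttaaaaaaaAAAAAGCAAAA
Neat1 short, chr19:5842307-5842396, minus strand: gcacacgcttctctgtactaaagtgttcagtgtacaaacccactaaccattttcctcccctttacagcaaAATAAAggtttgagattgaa

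Both stretches, at most 60 bases apart, were found in transcripts of 3 genes among 141767 annotated transcripts, namely *Neat1*, *Malat1* and *Retreg3*. AATAAA was in the last 90 bases of 28.1% of all transcripts. Of the 31-base words of the short transcript, 99% also lie in the long one, and the table has 1 value per gene, so the isoforms cannot be told apart. The sources used here do not state whether RNA with poly(A) was selected.

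The 6 libraries held 16020401 to 25638645 reads on genes, with the 3 corticosterone libraries the shallowest. Each value below is a normalized count, that is, the reads of a gene divided by 1 size factor per library, and a gene with 3 reads has a value of 2.32 to 3.84. The 7 genes were covered by 143 to 21538 reads per library. As a check of the treatment, *Fkbp5*, a cochaperone and target of the glucocorticoid receptor, rose from 463 ± 13.5 to 2556 ± 226 (SD, n = 3 each). All 6 osteoblast markers had values and all 6 were called lower with corticosterone. *Bglap*, *Sp7*, *Ibsp* and *Runx2* fell by 1.87, 1.34, 1.20 and 1.16 on the log2 scale, *Alpl* by 0.41 and *Col1a1* by 0.15. The summed value, 700059 to 734104 in vehicle and 626765 to 666935 in corticosterone libraries, is nearly all *Col1a1* (means 709237 and 638757). The calls of *Col1a1* (adjusted p up to 1), *Alpl* and *Ibsp* were each lost in at least 1 alternative. Among markers of other cell types, *Fabp4* was higher (7.72 to 21.1 and 108 to 130.5 per library) and *Plin1* was at 0 in all vehicle and 2 corticosterone libraries. Blood, endothelial and muscle markers summed to at most 62.4, and none of them was called. *Adipoq*, *Cidec*, *Acan*, *Ptprc*, *Adgre1*, *Cdh5*, *Kdr* and *Myog* were not analysed here. Cartilage markers were at 3543 to 3956 and 2985 to 3017, with 1 of 3 higher and 2 lower. Reads of mitochondrial genes made up 4.52% to 5.18% of the vehicle and 5.23% to 5.89% of the corticosterone libraries. The part of marker changes, depth and mitochondrial share in the results below was not tested.

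With corticosterone, *Neat1*, *Gas5*, *Snhg1* and *Snhg5* rose, and *Snhg8*, *Snhg12* and *Malat1* did not pass the test. *Neat1* had the largest change of the 7, a ratio of group means of 2.48, whereas *Gas5*, *Snhg5* and *Snhg1* had ratios of 1.30, 1.24 and 1.19. So 4 of 7 were called higher and 0 of 7 lower (limma, Benjamini-Hochberg adjusted p under 0.05 over all genes). The count was 2 without vehicle replicate 2, vehicle replicate 3, corticosterone replicate 1 or corticosterone replicate 3, and 1 without a trend of variance on level. Over all 24016 genes, 8.49% were called higher and 8.2% lower (16.7% in either direction), and among the 10558 genes with a mean of at least 100, which all 7 exceed, 17.1% and 15.5%. With a log2 fold change beyond 1 required as well, *Neat1* remained, against 1.38% of all genes higher and 1.4% lower. edgeR on the recovered reads called 283 of 13871 genes (2.04%) higher past that threshold. The 3 corticosterone libraries lay above all 3 vehicle libraries for the 4 genes called, a pattern that 14.7% of all genes showed, and 14.9% showed the reverse. Of the calls over all genes, 50.9% were higher, and 40.3% when the libraries were scaled to the same total. The log2 fold changes of the 7 stayed above 0 under every scaling tried. In these bulk cultures, fewer cells that express a gene and less RNA per cell cannot be told apart.

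**Figure D1:**
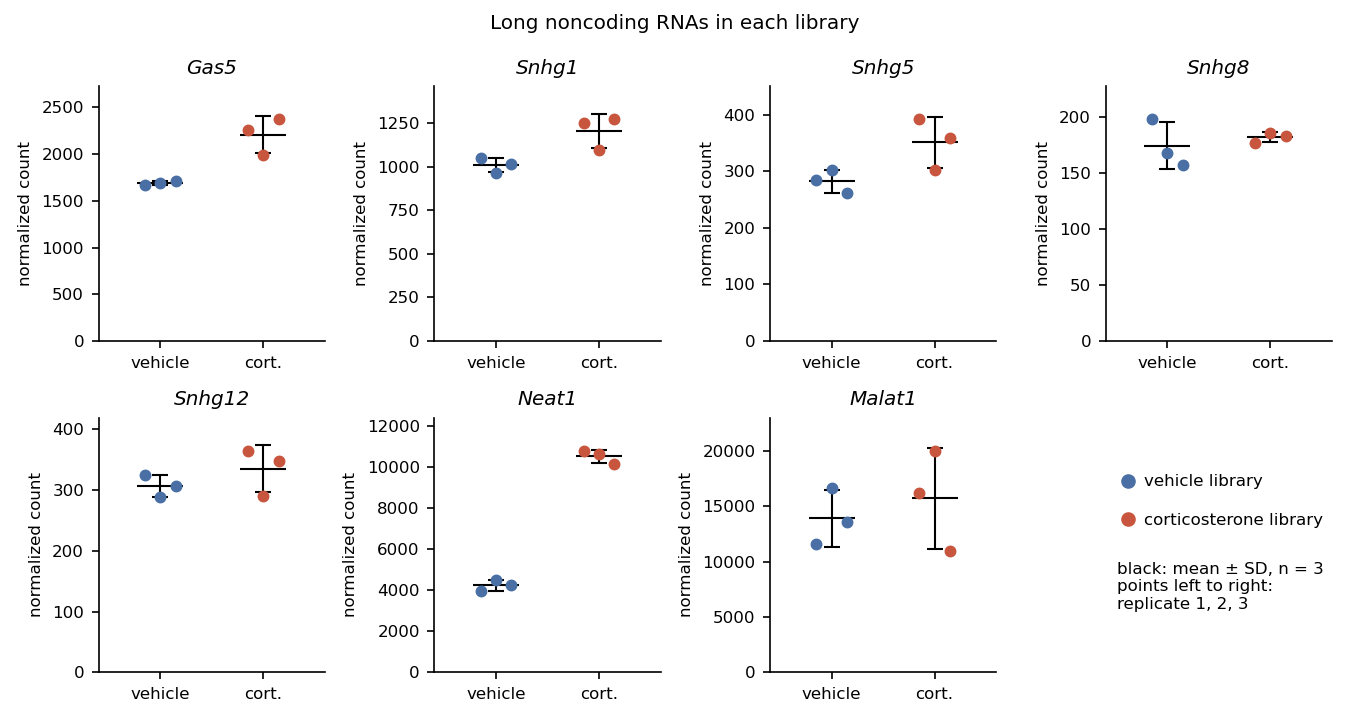
Normalized count of each gene (y axis, from 0) in the 3 vehicle and 3 corticosterone (cort.) libraries, with points for replicates 1 to 3 from left to right and black bars for the mean ± SD. The groups are apart for Gas5, Snhg1, Snhg5 and Neat1 and overlap for Snhg8, Snhg12 and Malat1.

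*Gas5* lies on chromosome 1, from 161034422 to 161038539 on the plus strand of GRCm38. Its normalized counts were 1671, 1695 and 1715 in vehicle replicates 1 to 3 and 2263, 1992 and 2373 in corticosterone replicates 1 to 3. The vehicle libraries were close together, every corticosterone library was above them, and corticosterone replicate 2 was the lowest of its group. The means were 1694 ± 21.9 and 2209.6 ± 196 (SD, n = 3). The log2 fold change was 0.38 (SE 0.06, 95% interval 0.26 to 0.50, limma adjusted p = 1.6e-04), and the two-sided exact permutation p was 0.1, the smallest that 3 against 3 allows. The call was kept in 21 of 22 alternative analyses, and without a trend of variance on level the adjusted p was 0.083.

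*Snhg1*, on chromosome 19 from 8723475 to 8726443, plus strand, carries 8 snoRNA entries. Its values were 1048, 965 and 1014 with vehicle and 1247, 1095 and 1272 with corticosterone. As with *Gas5*, the groups did not overlap and corticosterone replicate 2 was the lowest treated library. The log2 fold change was 0.25 (SE 0.06, adjusted p = 0.0092, limma). The call was lost without vehicle replicate 2 (adjusted p = 0.057), vehicle replicate 3 (0.088), corticosterone replicate 1 (0.076) or corticosterone replicate 3 (0.0996), with log2 fold changes of 0.21 to 0.32 over all libraries left out. The call was also lost without a trend of variance on level (limma adjusted p = 0.199).

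*Snhg5*, the host of *Snord50a* and *Snord50b*, lies on chromosome 9 from 88521050 to 88522929, minus strand. It was at 284, 302 and 262 with vehicle and at 392, 303 and 358 with corticosterone. The gap between the groups was narrow, since vehicle replicate 2 (302) and corticosterone replicate 2 (303) had almost the same value. Its log2 fold change of 0.31 (SE 0.10) had a limma adjusted p of 0.043. The call was lost in 13 of 22 alternatives, among them DESeq2 (adjusted p = 0.063), a blocked fit on the replicate number (0.061), and the fit without each of vehicle replicates 1 (0.13), 2 (0.060) and 3 (0.25) and corticosterone replicates 1 (0.24) and 3 (0.20). Of the 31-base words of its transcripts, 14.7% also occur in other annotated transcripts, mainly those of the noncoding genes *9330159M07Rik* and *9430037G07Rik*, and how the counting assigned reads from such words is not given in the sources used here.

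*Snhg8*, host of *Snora24* on chromosome 3 (123507552 to 123508404, minus strand), had values of 198, 167 and 157 with vehicle and 177, 186 and 183 with corticosterone. The treated libraries all fell between the lowest and the highest vehicle library. The log2 difference was 0.07 with a 95% interval of -0.17 to 0.30 (limma adjusted p = 0.77), so changes within that interval are compatible with these libraries.

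*Snhg12*, on chromosome 4 from 132308623 to 132311024, plus strand, carries mostly box H/ACA snoRNAs. It measured 324, 288 and 306 with vehicle and 364, 290.5 and 348 with corticosterone. Two-sided exact permutation gave p = 0.3 for these 3 against 3 libraries, and replicate 2 was the lowest in both groups. The interval of its log2 difference of 0.12 ran from -0.08 to 0.32 (limma adjusted p = 0.48) and takes in 0 as well as the estimate for *Snhg1*. No difference between host genes was tested, so the genes called and not called are not shown to respond differently.

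*Neat1* lies on chromosome 19 from 5824708 to 5845478 on the minus strand. Its normalized counts were 3946, 4499.7 and 4256 with vehicle and 10782, 10613 and 10147 with corticosterone. Each treated library held more than the highest vehicle library by a wide margin, and the libraries within a group were close to each other. The means were 4234 ± 278 and 10514 ± 329 (SD, n = 3), with a log2 fold change of 1.31 (SE 0.05, 95% interval 1.21 to 1.42, limma adjusted p = 1.1e-11). The call was kept in all 22 alternatives, with adjusted p of at most 0.0030 and log2 fold changes from 1.24 to 1.36. Among the 156 genes annotated as long noncoding, with a mean of at least 100, its log2 fold change was second to *Gm44275* (1.53). *Neat1* and *Gm44275* were the 2 genes of this set past the log2 threshold of 1.

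*Malat1*, its neighbour on the same strand (chromosome 19, 5795690 to 5802672), had the highest mean normalized count of the genes annotated as long noncoding. It measured 11563, 16623.5 and 13562 with vehicle and 16236, 20033 and 10959.7 with corticosterone. The corticosterone group held both the highest and the lowest of the 6 libraries. The log2 difference was 0.15 (SE 0.15, 95% interval -0.18 to 0.48, limma adjusted p = 0.63), and without corticosterone replicate 2 it was -0.05. Its SE was the largest of the 7, although it had the most reads. An annotated antisense transcript, *Gm37376*, overlaps 6.49% of its exon bases, and whether the counting used the strand is not given in the sources used here.

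**Figure D2:**
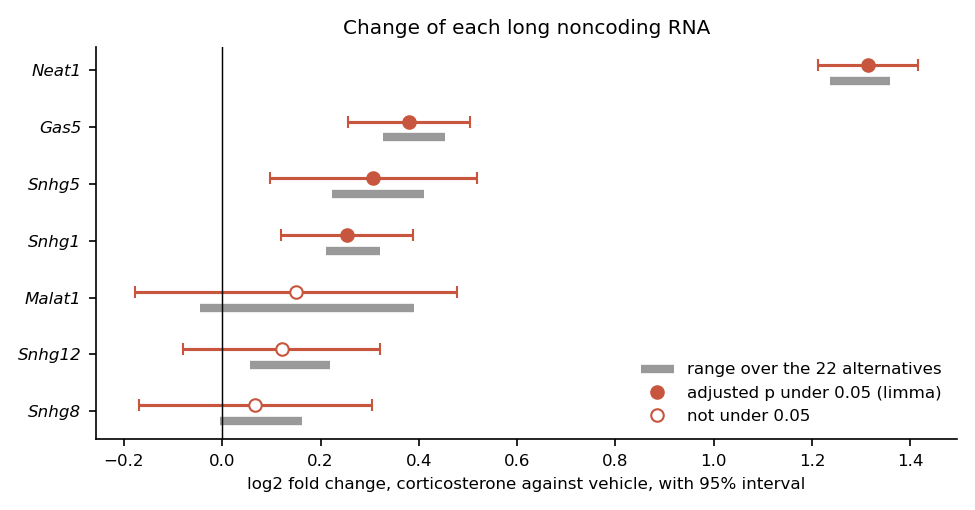
Log2 fold change of each gene (x axis, corticosterone against vehicle) with its 95% interval from limma, and a grey bar for the range over the 22 alternative analyses. Neat1 stands at 1.31, Gas5 at 0.38, and the intervals of Malat1, Snhg12 and Snhg8 include 0.

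A ratio within a library does not depend on how libraries are scaled, so *Neat1* was also set against *Malat1*. The ratio of their normalized counts was 0.341, 0.271 and 0.314 in vehicle replicates 1 to 3. It was 0.664, 0.53 and 0.926 in the corticosterone libraries. All treated ratios were above all vehicle ratios, and their spread was wider. The mean log2 ratio was higher by 1.16 with corticosterone (two-sided exact permutation p = 0.1, the smallest possible with 3 against 3). In these libraries the ratio was higher with corticosterone. The exact test has too few libraries to establish that the 2 genes changed unequally, and the ratio does not show that *Malat1* was constant.

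**Figure D3:**
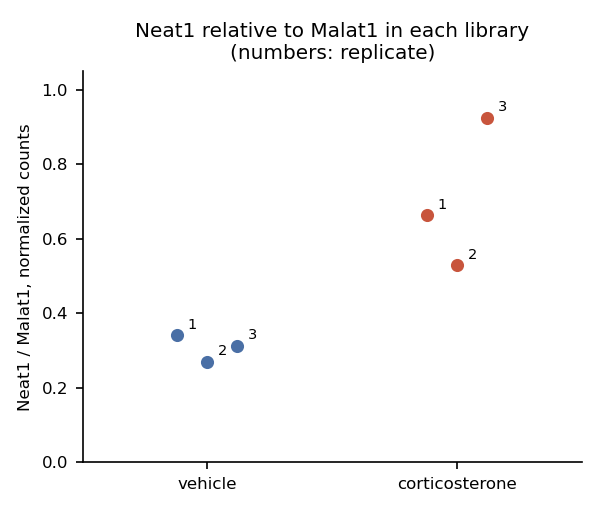
Normalized count of Neat1 divided by that of Malat1 in each library (y axis, from 0), with the replicate number beside each point. Vehicle ratios lie between 0.271 and 0.341 and corticosterone ratios between 0.53 and 0.926.

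Levels were compared between genes per kilobase of merged exons. In vehicle libraries *Malat1* stood first with a normalized count of 1993 ± 365 per kilobase (SD, n = 3). *Gas5* followed at 450.5 ± 5.82 and *Snhg1* at 339.7, with 353 in its highest library. *Snhg8* (204 ± 24.8) and *Neat1* (204 ± 13.4) had overlapping ranges and did not differ beyond their spread, and below them came *Snhg5* (163 ± 11.6) and *Snhg12* (127 ± 7.59). The other neighbours in this order did not overlap in the vehicle libraries. With corticosterone *Neat1* reached 506 ± 15.8 per kilobase, above *Snhg1* (406 ± 32.3) and *Snhg8* (213 ± 5.36) in every library and below *Gas5* (588 ± 52.1), whose lowest library (529.9) was just above the highest of *Neat1* (519). With the length of the longest transcript in place of merged exons, 4 of the 7 kept their place and *Snhg5* moved ahead of *Snhg8* and *Neat1*. Ranks by normalized count, without regard to length, were taken among 3738 genes annotated as long noncoding. In vehicle libraries they were 1 for *Malat1*, 6 for *Neat1*, 17 for *Gas5* and 23 for *Snhg1*. The others ranked 52 for *Snhg12*, 55 for *Snhg5* and 93 for *Snhg8*. With corticosterone *Neat1* ranked 3. Per kilobase of merged exons, the vehicle ranks among 24008 genes of all types ran from 386 for *Malat1* to 6360 for *Snhg12*. As a share of a library the 7 were small, since even *Malat1* took 0.0535% to 0.0993% of the summed values.

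**Figure D4:**
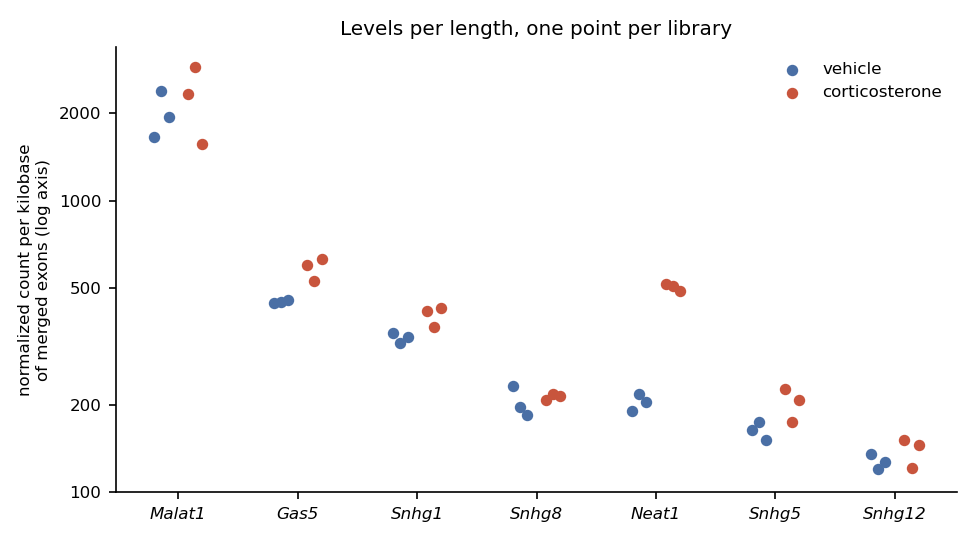
Normalized count per kilobase of merged exons (log axis) for each gene, ordered by the vehicle mean, with 1 point per library. Neat1 lies beside Snhg8 in the vehicle libraries and beside Gas5 in the corticosterone libraries, where it spans 489 to 519.

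Protein-coding genes that overlap these RNAs or start within 1000 bp of them were found for *Gas5* and *Snhg1*. *Slc3a2*, the heavy chain of amino acid transporters of the cell surface, starts 106 bp from *Snhg1* on the other strand. It was at 4079, 3952 and 3912 with vehicle and 5156, 5273 and 5420.4 with corticosterone, so all treated libraries were higher. Its log2 fold change of 0.41 (SE 0.04, limma adjusted p = 1.3e-06) was in the same direction as that of *Snhg1*. *Zbtb37*, a zinc finger gene on the other strand, starts at 161034849, 427 bp from the GENCODE start of *Gas5* (161034422). The gene bodies thus overlap there, and the RefSeq starts of *Gas5* given above lie elsewhere. *Zbtb37* was at 447, 519 and 509 with vehicle and 421, 433 and 438 with corticosterone. The groups did not overlap, but the log2 difference of -0.19 (SE 0.07) did not pass the test (limma adjusted p = 0.11). Neither pair shares exon bases.

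*Nr3c1*, the glucocorticoid receptor to which *Gas5* RNA binds, fell by 0.44 on the log2 scale (SE 0.05, limma adjusted p = 2.7e-06). Its mean was 2912 ± 12.2 with vehicle and 2149.7 ± 103 with corticosterone (SD, n = 3), while *Gas5* was higher in the same libraries.

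The 3 genes with the pattern nearest to *Gas5* over the 6 libraries, among 10557 genes with a mean of at least 100, were *Pnp*, *Luzp1* and *Retreg1*. The root mean square difference of their centred log2 values from those of *Gas5* was 0.032, 0.036 and 0.038, against a median of 0.225 over the genes compared. *Pnp*, purine nucleoside phosphorylase, went from 997, 987 and 984 to 1343, 1220.4 and 1437, with the same order of the treated libraries as *Gas5*.

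Of 16 further long noncoding genes known to host snoRNAs, 13 had values, and *Snhg4*, *Snhg7* and *Snhg9* were not analysed here. Of these 13, 4 were higher and 1 lower, with a median log2 fold change of 0.37 (all genes -0.01). The shares were 30.8% and 7.69%. Over all genes they were 8.49% and 8.2%, and over genes with a mean of at least 100, 17.1% and 15.5%. *Snhg11*, *Snhg14* and *Snhg3* had means under 10, near the floor, and over the other 10 genes the median was 0.36. The largest called increase was that of *Snhg17*, from 619 ± 33.8 to 909 ± 66.0 (log2 0.55, adjusted p = 1.5e-05, limma). *Dancr* rose from 122 ± 23.1 to 175 ± 14.6, and *Snhg15* and *Snhg20* were also called. *Snhg18* fell by 0.25 on the log2 scale (773 ± 23.0 to 649.7 ± 15.6, limma adjusted p = 0.0063). Without corticosterone replicate 3, 2 of the 4 increases were called. *Zfas1*, a further host of box C/D snoRNAs, was at 997 ± 49.6 and 1123 ± 71.5, without passing the test (adjusted p = 0.071).

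Host genes were also taken by position alone, as any gene with an annotated snoRNA wholly inside it on the same strand. Of 265 such genes, coding and noncoding, 68 were higher (25.7%) and 20 lower (7.55%), with a median log2 fold change of 0.08. *Gas5*, *Snhg1*, *Snhg5*, *Snhg8* and *Snhg12* are among the 265, so these counts are not independent of theirs. Over all genes, with no limit on level either, 8.49% were higher and 8.2% lower. Of the 206 hosts with a mean of at least 100, 66 were higher (32%) and 18 lower (8.74%), beside 17.1% and 15.5% of all genes at that level. The count of higher hosts was 40 without vehicle replicate 3 and 42 without corticosterone replicate 1.

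The proteins that package these snoRNAs include fibrillarin, *Nop56* and *Nop58* for box C/D and *Dkc1*, *Nhp2*, *Nop10* and *Gar1* for box H/ACA. Of 8 snoRNP core genes, 3 rose and 0 fell (median log2 0.21). Their shares were 37.5% and 0%, beside 17.1% and 15.5% of all genes with a mean of at least 100. *Dkc1*, the pseudouridine synthase, rose from 808 ± 93.8 to 1135 ± 19.5 (log2 0.50, limma adjusted p = 9.7e-05) and *Nop56* from 1815 ± 165 to 2406 ± 111 (log2 0.41). *Fbl*, the methyltransferase fibrillarin, was at 1288 ± 33.0 and 1338 ± 26.5 and did not pass the test.

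Among 19 translation genes whose mRNAs begin with an oligopyrimidine tract, 8 were higher and 1 lower (median log2 0.11). That is 42.1% and 5.26%, beside 17.1% and 15.5% of all genes with a mean of at least 100. *Pabpc1*, the cytoplasmic poly(A)-binding protein, rose from 24913 ± 96.9 to 31972 ± 164 (log2 0.36, limma adjusted p = 1.0e-06), and *Rack1*, a ribosome-associated scaffold, from 39129 ± 1192 to 46936 ± 1294. *Hnrnpa1* fell by 0.13 on the log2 scale, a call kept only without vehicle replicate 2 when single libraries were left out. With quantile normalization 3 were higher, and with edgeR and a replicate block 13.

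Nonsense-mediated decay factors, which act on spliced *Gas5*, showed 1 of 10 higher and 2 of 10 lower (median log2 -0.03), shares near the 17.1% and 15.5% of all genes with a mean of at least 100. *Upf3a* rose (log2 0.19, limma adjusted p = 0.034) whereas *Smg9* (-0.25, adjusted p = 0.020) and *Upf2* (-0.21, adjusted p = 0.034) fell. *Upf1*, the helicase of the pathway, was at 2092 ± 49.9 and 2023 ± 49.7. With single libraries left out, the increase was called only when corticosterone replicate 2 was missing, and no decrease was called without vehicle replicate 1 or 3 or corticosterone replicate 2 or 3.

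Of 12 proliferation genes, included because *Gas5* is named for growth arrest, 0 were higher and 4 lower (median log2 -0.15). These shares, 0% and 33.3%, stand beside 17.1% and 15.5% of all genes with a mean of at least 100. *Ccna2*, cyclin A2, fell from 1712 ± 121 to 1399 ± 63.4 (log2 -0.29, limma adjusted p = 0.0018) and *Ccnb1*, cyclin B1, from 1068 ± 48.8 to 878 ± 51.7. *Mki67* and *Cdk1* were the others called. *Pcna* and the replication helicase genes *Mcm2* and *Mcm5* did not pass. Without vehicle replicate 1 or 3, or corticosterone replicate 2 or 3, 2 of the 12 were called.

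Of 12 genes for proteins of paraspeckles, the bodies built on *Neat1*, 1 rose and 2 fell, and the median log2 fold change was -0.05. These shares, 8.33% and 16.7%, are below and near the 17.1% and 15.5% of genes with a mean of at least 100. *Sfpq*, a core paraspeckle protein, fell from 6806 ± 246 to 5756 ± 174 (log2 -0.24, limma adjusted p = 4.8e-04) and *Hnrnph3* fell by 0.25. *Rbm14* rose by 0.20. *Nono*, the partner of *Sfpq*, was at 6057 ± 35.5 and 5671 ± 57.0 with an adjusted p of 0.10. Without vehicle replicate 3, corticosterone replicate 2 or corticosterone replicate 3, no increase was called. A single decrease was called without vehicle replicate 1 or 3 or corticosterone replicate 1 or 2.

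Of 10 nuclear speckle genes, 5 were higher and 1 lower (median log2 0.15). These shares, 50% and 10%, stand beside 17.1% and 15.5% of all genes with a mean of at least 100. *Srsf5*, a splicing factor of the SR family, rose from 2427 ± 30.1 to 2955 ± 49.3 (log2 0.28, limma adjusted p = 1.1e-04) and *Srrm2*, a scaffold of speckles, from 12071 ± 468 to 14548 ± 605. *Srsf3* fell by 0.28 (5376 ± 285 to 4438 ± 157). Without corticosterone replicate 2 or 3, 3 were called higher.

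**Figure D5:**
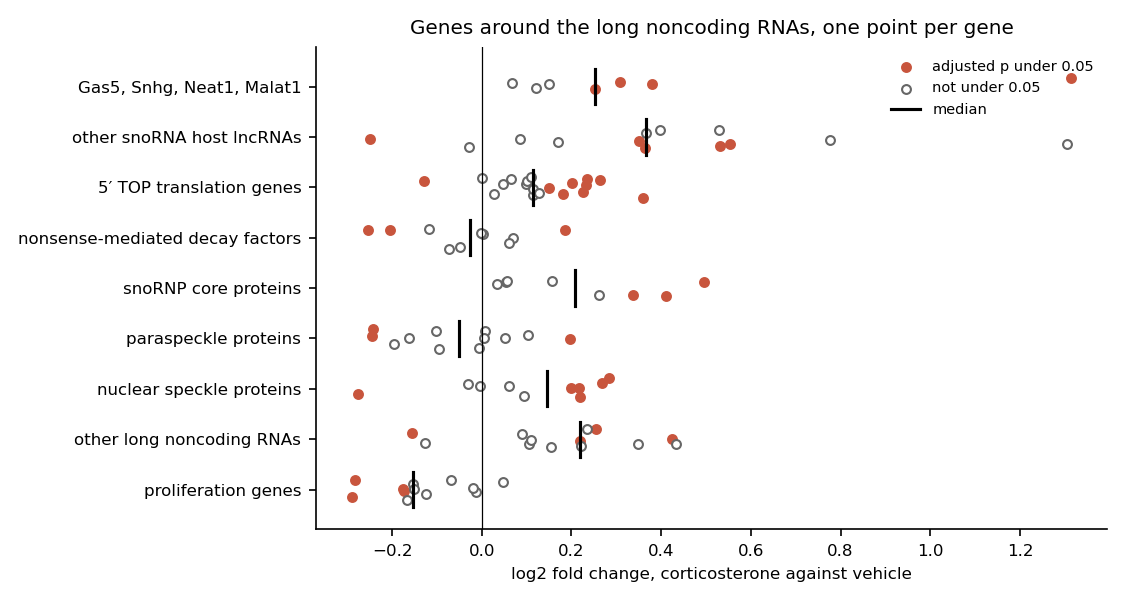
Log2 fold change of every gene with values in each list (x axis, corticosterone against vehicle), filled where the limma adjusted p was under 0.05, with a black bar at the list's median. The medians range from -0.15 for proliferation genes to 0.37 for the other host genes, and Neat1 at 1.31 lies apart from the other called points.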

How the data were processed

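RNA-seq libraries of 3 vehicle and 3 corticosterone cultures were compared. The authors isolated RNA by column, prepared libraries with an NEB Next Ultra kit, had them sequenced commercially on an Illumina instrument and tested them with DESeq2. The build mm10 is named in the submitters' processing notes. Aligner, counting program and strand setting are not given in the sources used here. The authors deposited 1 table named FPKM, with a signal for each gene and library, which holds read counts divided by 1 size factor per library. Whole reads came back for 100% of the values (tolerance 0.01).

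The members and gene lists were chosen with earlier results of these data known. The design assumed FPKM and was kept. limma 3.58.1 (lmFit, eBayes with trend, R 4.3.3) was run on log2(value + 0.1) for all 24016 genes, so fold changes are on that scale, with Benjamini-Hochberg adjustment. A minimum mean of 0.1 removed no gene, so the alternative with no filter repeats the main fit. The p-values measure the spread between cultures of the same line. The floor of 3 reads covers counting error only. Libraries of the same treatment differed by more than sampling noise (chi-square per degree of freedom of at least 3.58), so none was counted as a copy. Identifiers were matched to GENCODE M21 (24008 of 24016). Lists are described by counts and medians, with no set test. Alternatives were pseudocounts of 1 and 0.01, no variance trend, a robust prior, 4 scalings, no filter or a minimum mean of 10, a blocked fit on the replicate number, edgeR 4.0.16 and DESeq2 1.42.0 with and without the block, GC and length correction with the block, and each library left out.

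On simulated counts of 23724 genes, limma recovered 86 of 100 genes changed by a log2 fold change of 0.5 and 100 of 100 changed by 1, with 1 false call. Every simulated gene had the same dispersion (0.00311), and the changed genes had a mean of at least 100. Genes of wider spread, and changes as small as those of *Gas5*, *Snhg1* and *Snhg5*, were not simulated. The recovery does not cover them.

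The genes named are all 7 members, protein-coding neighbours within 1000 bp, snoRNAs inside members, up to 2 called genes per list and direction, the 3 genes nearest to *Gas5*, *Nr3c1* and *Fkbp5*. Other list members, and the genes named for comparison, were picked after their values were seen. Python 3.11.15, pandas 2.3.3 and matplotlib 3.10.9 were used.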

Additional observations from a re-analysis of the deposited data

How the results depend on the processing

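Over 22 alternatives, *Neat1* kept its call in 22, *Gas5* in 21, *Snhg1* in 17 and *Snhg5* in 9. The alternative with no filter is the main fit again, so its agreement was fixed in advance. *Snhg8* changed sign with GC and length correction and the block (-0.0040) and without vehicle replicate 3 (-0.0029), and *Malat1* without corticosterone replicate 2 (-0.0451). With each library left out, *Snhg8* ranged from -0.0029 to 0.1629 and *Malat1* from -0.0451 to 0.39.

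Without the variance trend, higher and lower calls numbered 873 and 760 over all genes (2040 and 1970 in the main analysis), 1 member was called, and 10 and 7 annotated hosts. Counts then were 1 and 0 for other host RNAs, 1 and 0 for oligopyrimidine genes, 0 and 0 for decay factors, 0 higher for snoRNP genes, 0 and 0 for paraspeckle genes, 1 and 0 for speckle genes, 0 and 0 for other noncoding RNAs and 0 lower for proliferation genes. DESeq2 gave 1 lower decay factor and 1 lower paraspeckle gene. DESeq2 with the block gave 1254 lower genes, 198 past the fold threshold, 2 higher and 0 lower other hosts, 0 and 0 decay factors, 0 higher and 1 lower paraspeckle gene, and 0 higher other noncoding RNAs. edgeR with the block gave 13 higher oligopyrimidine genes, 5 snoRNP genes and 2 lower other noncoding RNAs, and the robust prior 5 snoRNP genes. Quantile normalization gave 3 oligopyrimidine, 3 speckle and 2 lower other noncoding genes, scaling to the same total 0 higher decay, 0 higher paraspeckle and 2 lower noncoding genes, and GC and length correction with the block 0 lower oligopyrimidine and 0 lower decay genes. The longest transcript kept 4 of 7 places in the order. The cause was not tested.

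With each library left out, lower calls ranged from 1148 to 1611 over all genes and from 204 to 321 past the fold threshold, with the lowest of both without vehicle replicate 3, and 220 past the fold threshold without vehicle replicate 2. Member calls ranged from 2 to 4, annotated hosts higher from 40 to 60, and other hosts higher from 2 to 4. Lower oligopyrimidine genes ranged from 0 to 1, decay factors from 0 to 1 higher and 0 to 2 lower, paraspeckle genes from 0 to 1 higher and 1 to 3 lower, speckle genes from 3 to 5 higher, other noncoding RNAs from 0 to 1 higher and 0 to 1 lower, and proliferation genes from 2 to 4 lower.

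Same-numbered cultures did not deviate together (correlations -0.0438, 0.00136 and 0.0234 over 13880 genes), so no pairing by number was seen. These values do not show that the cultures were set up independently of each other. With the replicate block as a term, *Gas5* had an adjusted p of 3.2e-04, *Snhg1* 0.0055, *Snhg5* 0.061 and *Neat1* 3.5e-09, so *Snhg5* was the only one of the 7 whose call the block changed. Depth limits *Snhg8* most, with 143 to 244 reads per library.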

Other observations

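The annotation classes 156 genes with a mean of at least 100 as long noncoding. Of these, 34 were higher and 13 lower with corticosterone (limma adjusted p under 0.05), with a median log2 fold change of 0.04. That is 21.8% and 8.33%, beside 17.1% and 15.5% of all genes at that level. The 7 members are among the 156 and 4 of them among the 34, so the shares are not independent of theirs. Some entries bear symbols of protein-coding genes, such as *Ptpmt1* (called higher) and *Tctn2* (called lower). *Dio3os*, the antisense partner of a thyroid hormone deiodinase gene, rose by 0.65 (adjusted p = 7.7e-06), and *Crnde* fell by 0.56 (adjusted p = 0.0061). These genes were picked after their values were seen. In the list of 17 other long noncoding RNAs, 13 had values, and *Miat*, *Meg3*, *Rmrp* and *Rpph1* were not analysed here. Of the 13, 3 rose (*Pvt1*, *Dleu2* and *Mir22hg*) and 1 fell (*Norad*, listed as *2900097C17Rik*), with a median of 0.22. These shares were 23.1% and 7.69%. Over all genes they were 8.49% and 8.2%, and over genes with a mean of at least 100, 17.1% and 15.5%. With single libraries left out, at most 1 of the 3 increases was called and 0 without corticosterone replicate 2 or 3, and the decrease was lost without vehicle replicate 3, corticosterone replicate 1 or corticosterone replicate 3. *Dleu2* went from 167 ± 24.3 to 224 ± 23.8 (SD, n = 3) and *Norad* from 6655 ± 254 to 5973 ± 6.60. *H19* was at 3109 ± 252 and 3386 ± 628 without passing the test.

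The annotated host genes were also divided by what they carry, a division chosen after seeing the data. SnoRNAs that could not be classed were left out of account. Of 37 hosts whose classed snoRNAs were all box C/D, 16 were higher (43.2%) and 3 lower (8.11%, median log2 0.13). Of 100 hosts whose classed snoRNAs were all box H/ACA, 24 were higher (24%) and 7 lower (7%, median 0.05). The 8 hosts of both classes held 4 higher and 0 lower. The remaining 120 hosts had no classed snoRNA, with 24 higher (20%) and 10 lower (8.33%). Over all genes, 8.49% were higher and 8.2% lower, and over genes with a mean of at least 100, 17.1% and 15.5%. Among the 28 hosts that encode ribosomal proteins, 13 were higher (46.4%) and 1 lower (3.57%), and of 39 noncoding hosts, 9 (23.1%) and 1 (2.56%). The noncoding hosts include *Gas5*, *Snhg1*, *Snhg5*, *Snhg8* and *Snhg12*. Without these, 6 of 34 noncoding hosts were higher (17.6%) and 1 lower (2.94%). These differences between classes were not tested.

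The 3 genes with the pattern nearest to *Neat1*, also sought after its values were seen, were *Adarb1*, *Dusp1* and *P2rx5*. The root mean square difference of centred log2 values was 0.044, 0.044 and 0.056, against a median of 0.666. *Dusp1*, a phosphatase of mitogen-activated kinases and a known glucocorticoid target, went from a mean of 438 to 1124, and *Adarb1*, an RNA-editing enzyme, from 1407 to 3651.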
